A study of Homo sapiens with 6 samples.

Results

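MiR-103a-3p and miR-107 were followed in human CCA cells with and without TGF-β. They were chosen by name, as the near-identical miRNAs encoded within PANK genes, and the rule uses no measured value, although earlier results of these data were known when it was written. They are 2 of the 2555 human miRNAs with a probe on the microRNA arrays. HuCCT1 is an established human CCA cell line, and a single line is the only model here. Its cells received 0 ng/ml (control) or 10 ng/ml TGF-β, which is used to induce EMT, and total RNA was taken from both groups after 72 h, labelled with Cy5 and hybridized to 3D-Gene arrays, 1 sample per array and 3 arrays per group. The labels do not say whether the arrays of a group came from separate cultures, so p-values measure only the spread between these arrays, which may be technical. Control arrays 1 to 3 and TGF-β array 1 lay on 1 chip (chip 1), and TGF-β arrays 2 and 3 lay on another (chip 2).

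A miRNA is cut from a hairpin precursor, and bases 2 to 8 from its 5′ end, the seed, lead it to mRNAs that it represses. PANK genes encode pantothenate kinases, which catalyse the first step of coenzyme A synthesis, and miR-103 and miR-107 lie in their introns and are known for roles in lipid and insulin metabolism. Both are also known to repress Dicer, the enzyme that cuts miRNA precursors, and in epithelial tumours they have been linked to EMT through the miR-200 family. MiR-103 is in wide use as a reference miRNA in qRT-PCR.

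The mature sequences are shown because they differ by 1 base, which bears on every comparison of the pair. They were taken from RefSeq (GRCh38.p14), and the seed is in capitals.
hsa-miR-103a-3p: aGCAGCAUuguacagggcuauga
hsa-miR-107: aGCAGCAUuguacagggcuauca
The single difference is G22C, with the base of miR-103a-3p first and positions counted from 1 at the 5′ end. The first 21 bases are identical, so 22 of 23 bases (95.7%) are shared. Of 2370 mature human miRNA names in RefSeq, only these 2 carry this seed.

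MiR-103a-3p is made from a pair of genes. MIR103A1 places it at chr5:168560904-168560926 on the minus strand, within the bounds of PANK3, and MIR103A2 places it at chr20:3917541-3917563 on the plus strand, within PANK2. MiR-107 lies at chr10:89592756-89592778 on the minus strand, within PANK1. All 3 hairpins run on the strand of the PANK gene that holds them. The array probe for miR-103a-3p cannot separate the products of its genes, since the mature sequence is the same. The hairpins are shown with the mature miRNA in capitals, to set the shared arm against the rest of each precursor.
MIR103A1: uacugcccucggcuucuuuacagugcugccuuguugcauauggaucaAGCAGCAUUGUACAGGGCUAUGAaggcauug
MIR103A2: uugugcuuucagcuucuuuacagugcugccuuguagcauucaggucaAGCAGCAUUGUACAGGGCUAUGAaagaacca
MIR107: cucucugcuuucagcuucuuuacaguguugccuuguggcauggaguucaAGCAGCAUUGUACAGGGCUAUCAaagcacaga
Over their whole length, MIR103A1 and MIR103A2 shared 80.8% of aligned positions (63 of 78), MIR103A2 and MIR107 85.2% (69 of 81), and MIR103A1 and MIR107 79.0% (64 of 81).

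The arrays give the brightness of each spot, from which the mean of the 229 blank spots of the same array was subtracted. Detection required a spot brighter than this mean plus 2 SD of the blank spots, which held for 327 to 464 human miRNAs per array. The median signal of the 292 miRNAs detected on all 6 arrays was then set to 25 on each array, and this scaled signal is called the normalized signal here. A miRNA counted as expressed if either group had it detected on each of its 3 arrays, and 323 were. Of the 5 epithelial marker miRNAs, 4 were detected on all 6 arrays and miR-429 on 5. Of 6 blood markers, 5 were detected on none and miR-223-3p on 1 array, and the hepatocyte marker and the 6 muscle and stroma markers were detected on none.

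MiR-103a-3p and miR-107 were bright in HuCCT1 cells, and neither differed between the groups by more than the spread between arrays. On all 6 arrays, their spots lay far above the blank spots, from 64.9 to 120.7 blank SDs for miR-103a-3p and from 53.7 to 102.8 blank SDs for miR-107. The local background given with each spot was nevertheless above the spot of miR-103a-3p on 3 arrays and that of miR-107 on 4. Over all detected human miRNAs, this held for 2.86% to 27.7% of spots per array. What the local background measures is not stated in the sources used here. Before scaling, the miR-103a-3p spot of control arrays 1, 2 and 3 read 247, 497 and 236, and that of TGF-β arrays 1, 2 and 3 read 667, 655 and 335. The miR-107 spot read 215, 420 and 203 in the controls and 539, 548 and 273 after TGF-β, in the same order. Arrays also differed as a whole, with blank means from 29.5 to 82.3, and the scaled values are the ones compared.

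For control arrays 1, 2 and 3, the normalized signal of miR-103a-3p was 110.3, 139.6 and 121.0, compared with 140.9, 123.3 and 141.6 for TGF-β arrays 1, 2 and 3. Control array 1 was the lowest and TGF-β array 3 the highest, while control array 2 lay above TGF-β array 2, so the groups overlapped. The mean was 123.6 ± 14.8 (SD, n = 3) in control cells and 135.2 ± 10.3 (SD, n = 3) after TGF-β treatment. On the log2 scale the change was 0.13 (SE 0.19, 95% confidence interval -0.29 to 0.56), with an adjusted p of 0.99 in limma over the 323 expressed miRNAs. The 2-sided exact permutation test gave p = 0.2, where 3 arrays against 3 cannot go below 0.1.

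MiR-107 had a normalized signal of 93.9, 115.4 and 101.8 in controls 1, 2 and 3, compared with 110.1, 100.6 and 111.2 in the 3 TGF-β-treated samples, in order. Both the lowest and the highest value came from control arrays, so the TGF-β arrays lay wholly within the control range. The mean was 103.7 ± 10.8 (SD, n = 3) in control cells and 107.3 ± 5.86 (SD, n = 3) after TGF-β treatment. The log2 change was 0.05 (SE 0.18, 95% confidence interval -0.36 to 0.47), with an adjusted p of 0.99 in limma and p = 0.7 in the 2-sided exact permutation test. Without control array 1, the change was -0.016.

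**Figure D1:**
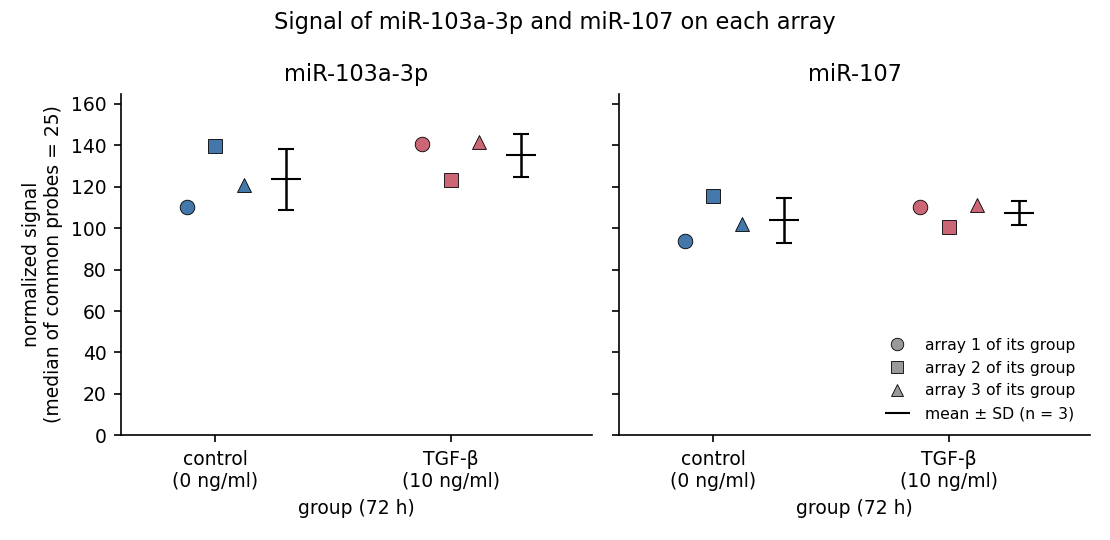
Normalized signal (vertical axis, linear from 0, median of the miRNAs common to all arrays set to 25) of miR-103a-3p and miR-107 on each of the 6 arrays, by group, with the mean ± SD of each group of 3 beside the points. For both miRNAs the points of the control and TGF-β groups overlap, and control array 1 is the lowest.

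These intervals bound the change rather than show that there was none. As a fold, the interval ran from 0.816 to 1.47 for miR-103a-3p and from 0.779 to 1.38 for miR-107, which in this scaling lies between the thresholds of 0.67 and 1.5 that the study used to call a miRNA changed. Of the 2 miRNAs, 0 passed an adjusted p of 0.05, as did 0 of the 323 expressed miRNAs (0.0%), of which 21 had an unadjusted limma p under 0.05. By the methods' t-test with the same adjustment, 1 expressed miRNA passed, and it was neither of the pair. Neither miRNA was among the 32 expressed miRNAs (9.91%) whose groups did not overlap. In size, the change of miR-103a-3p was exceeded by 50.5% of the expressed miRNAs and that of miR-107 by 80.5%.

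The sign of these small changes depended on how the arrays were scaled. In the authors' own normalized values the log2 change was -0.13 for miR-103a-3p and -0.21 for miR-107, and with scaling by the spike-in control spots it was -0.18 and -0.26. These settings moved the other miRNAs as well. The median change of the expressed miRNAs was 0.01 in the values above, -0.27 in the authors' values and -0.30 with spike-in scaling. Relative to that median, miR-103a-3p was higher by 0.12 and miR-107 by 0.04 in the values above, and by 0.14 and 0.06 in the authors' values. With spike-in scaling the distances were again 0.12 and 0.04. That follows by construction, since 1 factor per array moves all miRNAs alike. The position of miR-107 was not stable, since it lay at -0.047 relative to the median without control array 1, at -0.038 without TGF-β array 3, and at -0.0045 when miRNAs detected on at least 1 array were counted.

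**Figure D2:**
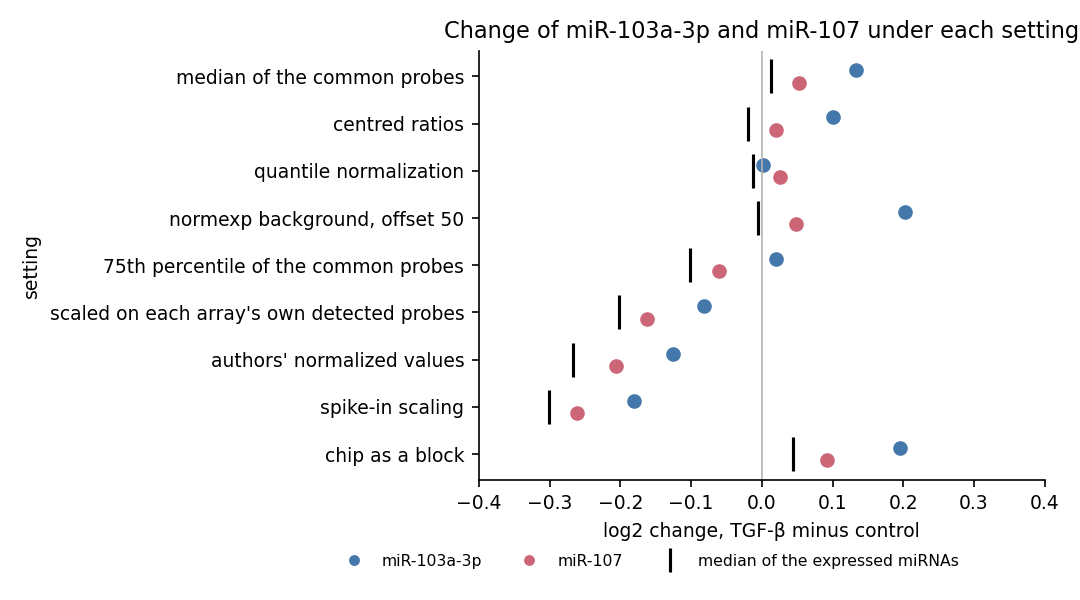
Log2 change (horizontal axis, TGF-β minus control) of miR-103a-3p and miR-107 under the scalings, background corrections and chip block named on the vertical axis, with a bar at the median change of the expressed miRNAs in each. Both points lie above the median bar in every setting drawn, while the side of 0 on which they lie changes with the scaling.

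The chips held unequal shares of the groups. Among the arrays of chip 1, TGF-β array 1 stood against all 3 control arrays, and the log2 change there was 0.20 for miR-103a-3p and 0.09 for miR-107. The fit with chip as a block gave the same values, with adjusted p of 0.84 and 0.93 in limma. Chip 2 held only TGF-β arrays and gives no value of its own.

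The pair varied less between arrays of the same group than most detected miRNAs, which were dimmer. The SD within groups on the log2 scale was 0.14 for miR-103a-3p and 0.12 for miR-107, against a median of 0.28 over the 292 miRNAs detected on all arrays, of which 86.0% had a larger SD than miR-103a-3p and 93.2% a larger one than miR-107.

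The pair moved together from array to array. Centred on its own mean over the 6 arrays, the log2 signal of miR-103a-3p stood at -0.22, 0.12 and -0.09 in controls 1, 2 and 3, then at 0.13, -0.06 and 0.14 after TGF-β. That of miR-107 stood at -0.16, 0.13 and -0.05 in the controls, then at 0.07, -0.07 and 0.08 after TGF-β. Both were above their mean on control array 2 and TGF-β arrays 1 and 3, and below it on the remaining arrays.

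Likeness of pattern was measured as the root-mean-square difference of these centred values over the 6 arrays, which does not depend on any scaling factor of an array. MiR-107 was the nearest of 291 candidates to miR-103a-3p and miR-103a-3p the nearest of 291 to miR-107, at a difference of 0.05. The next nearest to miR-103a-3p was miR-4281, at 0.07, and the next nearest to miR-107 was let-7f-5p, at 0.06, against medians of 0.29 and 0.28 over all candidates. The miRNAs nearest to the mean of the pair, of 290 candidates, were let-7f-5p at 0.06, miR-4281 at 0.07, let-7e-5p at 0.08, miR-6869-5p at 0.10 and miR-16-5p at 0.10. The 6 points behind each value share their libraries, so these distances are a description.

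**Figure D3:**
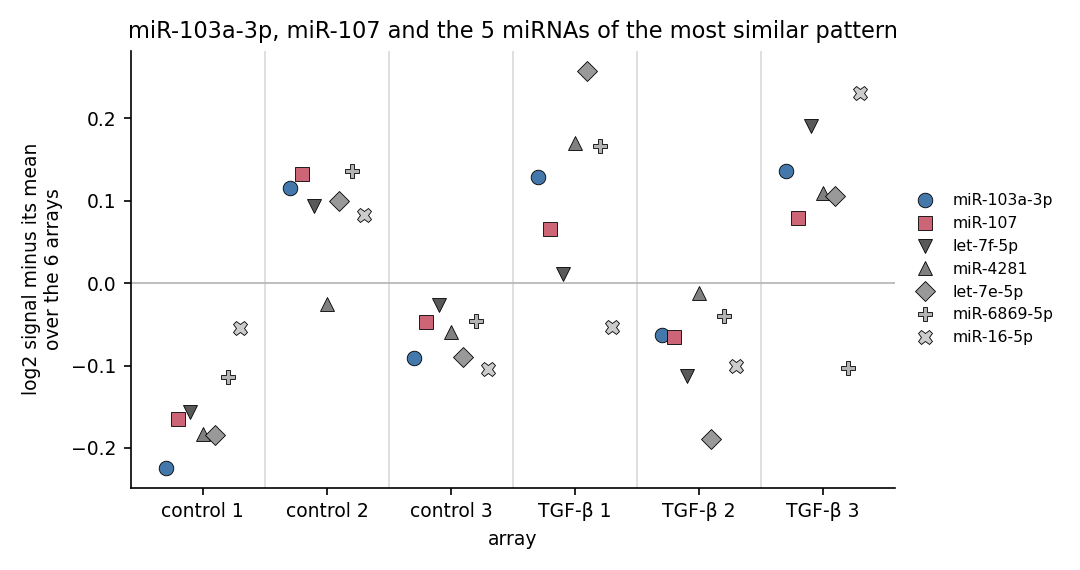
Log2 signal minus its mean over the 6 arrays (vertical axis) of miR-103a-3p, miR-107 and the 5 miRNAs nearest to their mean pattern, by array (horizontal axis). MiR-103a-3p and miR-107 differ by at most 0.063 on any array.

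Dividing the signal of miR-107 by that of miR-103a-3p within each array removes the scaling factor of the array. In controls 1, 2 and 3 the ratio was 0.851, 0.827 and 0.842, and in the TGF-β-treated samples it was 0.782, 0.815 and 0.785, in order. Every TGF-β array lay below every control array. Before scaling, the miR-103a-3p spot read 236 to 497 on the control arrays and 335 to 667 on the TGF-β arrays. Whether the ratio depends on the brightness of the spots was not tested. The mean ratio was 0.840 ± 0.0125 (SD, n = 3) in control cells and 0.794 ± 0.0184 (SD, n = 3) after TGF-β treatment. The log2 difference was -0.08 (SE 0.02, 95% confidence interval -0.14 to -0.02), a fold of 0.946 with an interval from 0.905 to 0.988. The 2-sided exact permutation test gave p = 0.1, the smallest that 3 arrays against 3 can give. With quantile normalization, which alters ratios within an array, the log2 difference was 0.025, in the other direction.

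Groups that do not overlap were common among such ratios. Of all 42486 pairs of miRNAs detected on all 6 arrays, 10.6% had groups that did not overlap, and 81.5% had a larger difference between groups than this pair, so the separation of its groups is not particular to it. Since spots of different probes differ in how they report an amount, a ratio under 1 does not say which of the miRNAs was more abundant. Probe sequences were not used here, and how far the probe of either miRNA binds the other was not tested.

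**Figure D4:**
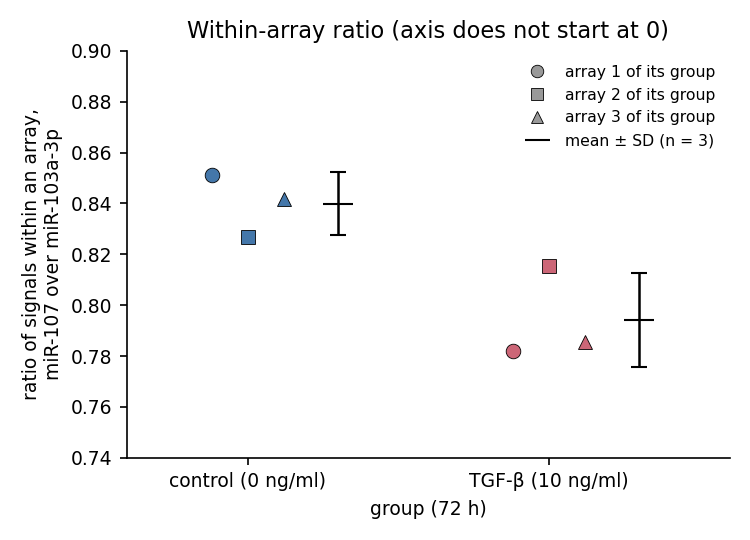
Ratio of the signal of miR-107 to that of miR-103a-3p within each array (vertical axis, which does not start at 0), by group, with the mean ± SD of each group of 3 beside the points. The control arrays sit between 0.827 and 0.851 and the TGF-β arrays between 0.782 and 0.815.

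Between arrays of a group, the ratio varied little. Its SD, pooled over both groups on the log2 scale, was 0.028, against a median of 0.41 over all pairs, and 6 of the 42485 other pairs varied less. A limit of a mean normalized signal of at least 100 was chosen after the values were seen, just under the mean of 105.5 for miR-107. Among the 60 miRNAs that reached it, 0 of 1769 other pairs varied less and the median was 0.32. That count depends on the limit.

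The sequences above allow a comparison with other miRNAs that are 1 base apart. Of the 252 miRNAs that were detected on all 6 arrays and matched by name to RefSeq, 12 pairs differed by a single base, and miR-103a-3p with miR-107 varied least of them. The next was miR-106a-5p with miR-17-5p, which differ at position 1, with an SD of 0.088. The 11 other pairs had SDs of up to 0.547, with a median of 0.183. They differ at positions from 1 to 20, against 22 here, and some are dimmer. MiR-30a-3p with miR-30e-3p, the widest, had mean normalized signals of 11.9 and 7.98, against 129.4 and 105.5 for this pair. Let-7b-5p with let-7c-5p stood at 0.140 and miR-27a-3p with miR-27b-3p at 0.183. Let-7a-5p with let-7e-5p, at mean signals of 193.0 and 122.0, reached 0.538. The groups also did not overlap for let-7b-5p with let-7c-5p, miR-29a-3p with miR-29c-3p and let-7a-5p with let-7c-5p, against 10.6% of all ratios, and 2 of these 3 pairs share let-7c-5p.

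**Figure D5:**
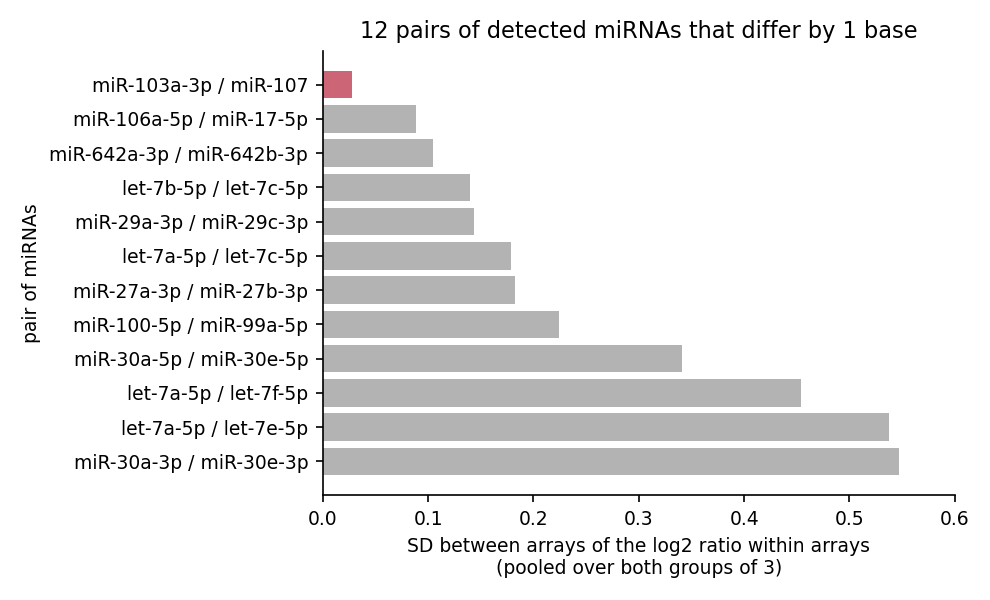
SD between arrays of the log2 ratio within arrays, pooled over both groups of 3 (horizontal axis, from 0), for the 12 pairs of detected miRNAs that differ by 1 base. The bar of miR-103a-3p with miR-107, at 0.028, is the shortest, and the next is at 0.088.

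An opposite arm and the antisense product of these precursors were measured, and neither was detected. Probes were present for miR-103a-2-5p, from the 5p arm of MIR103A2, and for miR-103b, which is encoded on the strand opposite to miR-103a and is its reverse complement. No probe named miR-103a-1-5p, the 5p arm of MIR103A1, was on the array. The 5p arm of MIR107 was not analysed here.
hsa-miR-103a-2-5p: aGCUUCUUuacagugcugccuug
hsa-miR-103b: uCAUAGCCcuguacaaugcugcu
With the seed again in capitals, neither shares that of the 3p arms. MiR-103a-2-5p was detected on 0 of 6 arrays, with spots from -3.01 to 0.03 blank SDs of the blank mean. MiR-103b was detected on none of the 5 arrays with a usable spot, where it lay from -4.01 to -1.39 blank SDs. Its spot on TGF-β array 2, 8.46 blank SDs above the blank mean, was flagged as failed by the scanner software and was left out. These values say that no usable spot exceeded the blank mean plus 2 SD, not that the RNA was absent.

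The miR-15/16 family carries nearly the same seed, shifted by 1 base. Its 4 expressed members are shown with the run that matches bases 1 to 7 of miR-103a-3p and miR-107 in capitals.
hsa-miR-15a-5p: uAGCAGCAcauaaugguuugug
hsa-miR-15b-5p: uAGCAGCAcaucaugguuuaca
hsa-miR-16-5p: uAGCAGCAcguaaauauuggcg
hsa-miR-195-5p: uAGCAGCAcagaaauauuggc
Of the 9 members on the array, 4 were expressed, miR-424-5p was detected on 1 control array and 4 were detected on none. The log2 change was -0.11 for miR-15a-5p, 0.68 for miR-15b-5p, 0.05 for miR-16-5p and -0.26 for miR-195-5p, with 0 past the adjusted p and a median of -0.03 beside 0.01 over all expressed miRNAs. MiR-15b-5p went from 32.1 ± 11.3 to 49.5 ± 9.35 (mean ± SD, n = 3 per group), with an adjusted p of 0.72 in limma, and its groups overlapped narrowly at 39.5 and 38.8. The changes of this family come from the scaling of the main comparison, and those under other scalings were not compared.

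The miR-200 family, which marks epithelial cells, was expressed in all 5 members, with 0 past the adjusted p and a median log2 change of 0.05 beside 0.01 over all expressed miRNAs. MiR-200b-3p, at 0.30, and miR-200c-3p, at 0.40, had groups that did not overlap, as did 32 of the 323 expressed miRNAs (9.91%), with adjusted p of 0.89 and 0.70 in limma. MiR-200a-3p stood at -0.08, miR-141-3p at -0.65 and miR-429 at 0.05. All these values come from the scaling of the main comparison. The median change of the expressed miRNAs was 0.01 there, -0.27 in the authors' values and -0.30 with spike-in scaling. Whether miR-200b-3p and miR-200c-3p were higher after TGF-β, or kept separate groups, under those other scalings was not tested.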

How the data were processed

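MiRNA was measured in 6 samples of HuCCT1 cells, 3 control and 3 treated with TGF-β, grouped and numbered by their labels. The authors deposited the scanner output of each array, with the intensity of each spot as the median over its pixels, unscaled, together with its local background. They also deposited a table of normalized intensity values, in which the median of the miRNAs listed for an array is 25 and the others are empty. On every array, these values followed the scanner intensity along a straight line. The software named in the methods is 3D-Gene Extraction, and its version and detection rule are not given in the sources used here.

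Scanner intensities were reduced by the blank mean, each array was scaled on the probes detected on all 6 arrays, undetected signals were raised to the smallest detected one of their array, and values were log2 transformed. Control spots were excluded, and failed human spots, 0 to 2 per array, were treated as missing. Groups were compared with limma 3.58.1 (lmFit and eBayes) in R 4.3.3, without a block, and p-values were adjusted by Benjamini-Hochberg, with 0.05 as the threshold. The within-array ratio was compared by a 2-sided exact permutation test over arrays, with an interval from a pooled-variance linear model. The number of arrays limits the precision. The limma step was tested on simulated data.

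Both groups share replicate numbers. For numbers 1, 2 and 3, the deviations of the control and the TGF-β array from their group means had correlations of 0.12, 0.24 and 0.33 over 322 miRNAs. No such correlation was computed between arrays of unlike numbers, so these values do not establish a pairing. Neither labels nor methods say what a number marks, and the main comparison ignores it. The replicate block is an alternative.

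The miRNAs named are the pair, other products of its precursors, the miR-15/16 and miR-200 families, the cell type markers and the 5 miRNAs of the nearest pattern. The pair and the lists were chosen with earlier results of these data known. The 1-base pairs and the variation of other ratios were added after the values were seen. Sequences and positions came from RefSeq tables (GRCh38.p14), and placement in introns is general knowledge.

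The alternatives were the authors' values, background by normexp (offset of 50) or by local background, 5 other scalings (own detected probes, 75th percentile, centred ratios, quantile and spike-in spots), 3 other filters, detection at 3 SD, no lowest signal, eBayes with trend and robust settings, blocks for replicate or chip, the arrays of chip 1, the methods' t-test and the omission of each array in turn.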

Additional observations from a re-analysis of the deposited data

How the results depend on the processing

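The other filters, no lowest signal, the eBayes settings, the methods' t-test and the replicate block leave the log2 change of either miRNA as it was. The chip block and the arrays of chip 1 give the same estimate. Counts of signs over the alternatives therefore overstate how often the sign was tested. The log2 change of miR-103a-3p stayed above 0 in 21 of 24 alternatives and turned to -0.13 in the authors' normalized values (adjusted p of 0.93 in limma), -0.082 when each array was scaled on its own detected probes and -0.18 with spike-in scaling. That of miR-107 stayed above 0 in 19 of 24 and turned to -0.21, -0.16 and -0.26 in the same settings, to -0.061 with the 75th percentile and to -0.016 without control replicate 1. Measured from the median change over all expressed miRNAs, both were above 0 in these 4 scalings, by construction where each array is scaled by 1 factor. By the same measure, miR-107 was at -0.047 without control replicate 1, -0.038 without TGF-β replicate 3 and -0.0045 with detection on at least 1 array. Adjusted p ran from 0.63 to 1.00 for miR-103a-3p and from 0.50 to 1.00 for miR-107. Leaving out each array gave 0.05 to 0.22 for miR-103a-3p and -0.016 to 0.13 for miR-107. The log2 difference of the within-array ratio was below 0 in 23 of 24 alternatives, but many of these cannot change it. It stays at -0.081 under any scaling by 1 factor per array, the other filters, detection at 3 SD and no lowest signal. The eBayes settings, the methods' t-test and the replicate block also leave it there. With normexp, which also uses the local background, it was -0.15 (exact permutation p = 0.7). With quantile normalization, which does not keep ratios within an array, it turned to 0.025 (exact permutation p = 0.8). On leaving out each array the log2 difference of the ratio ran from -0.10 to -0.070. By the methods' t-test the same difference of -0.081 had an unadjusted p of 0.024. The count of miRNAs past the adjusted p was 0 in 23 of 25 alternatives, with 1 (miR-4521) by the methods' t-test and a range of 0 to 1 on leaving out an array, the 1 being miR-629-5p without TGF-β replicate 3. With the replicate block, the changes were 0.13 and 0.05, the ratio -0.081 (exact sign-flip p = 0.25) and the count 0, and no call changed. Subtracting the local background gave no value for the pair, since it exceeded the spot of miR-103a-3p on 3 arrays and that of miR-107 on 4.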
